A study of Mus musculus with 6 samples.

Results

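The 10 genes described here encode parts of the synaptonemal complex or act at the entry into meiosis. They were taken by name, and the names were chosen with earlier results of these data known. They are the rows of the gene count table whose Entrez identifiers map to Sycp1, Sycp2, Sycp3, Syce1, Syce2, Syce3, Tex12, Meioc, Stra8 and Ythdc2. All 10 were found among 24421 rows. RNA-seq read counts came from mouse germinal vesicle (GV) oocytes, with 15 oocytes of 1 female per library and 3 libraries per genotype. Every female was of a mixed FVB, 129/Sv and C57BL/6J background, aged approximately 3 months, and carried the genotype Ring1 -/-; Rnf2 f/f. The group called DKO also carried Zp3-cre, a recombinase driven by the promoter of a zona pellucida gene that is active in growing oocytes, and the group called SKO did not. Both groups therefore lacked Ring1. Since DKO females alone carried the transgene, what it may do by itself and the deletion of Rnf2, which encodes the other ubiquitin ligase of Polycomb repressive complex 1 (PRC1), cannot be told apart. The labels describe the libraries as earlier ones analysed again and do not say outright that the 3 libraries of a genotype came from different females, so p-values measure the spread between these libraries.

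The synaptonemal complex is a protein zipper that holds homologous chromosomes together in prophase of the first meiotic division. SYCP2 and SYCP3 line the chromosome axes as lateral elements, SYCP1 forms the transverse filaments that bridge them, and SYCE1, SYCE2, SYCE3 and TEX12 build the central element along the midline. STRA8 is the retinoic acid-induced switch that starts the meiotic programme, and MEIOC works with the RNA helicase YTHDC2 to clear mitotic transcripts as prophase begins. In females these steps take place in the fetal ovary, so that an oocyte has left pachytene long before it starts to grow and before Zp3-cre becomes active. PRC1.6, a variant PRC1 that holds MGA, MAX, E2F6 and PCGF6, is known for silencing such genes in other cells.

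Of the 10 genes, 5 were higher in DKO oocytes, 3 did not pass the test and 2 could not be tested. Meioc, Syce1, Sycp3, Sycp1 and Tex12 rose, by 25.5-fold for Meioc and 2.77-fold for Tex12 at the ends of the range. Sycp2, Syce2 and Ythdc2 were not called, Syce3 had almost no reads, and Stra8 had none in any library. Across all 14845 genes tested, 17.3% were called higher and 7.41% lower (edgeR quasi-likelihood test, adjusted p under 0.05). None of the 8 tested members was called lower, none was lower at an unadjusted p under 0.05, and DESeq2 and limma-voom called 0 lower as well. The 5 risen members were also those in which every DKO library lay above every SKO library, a pattern found in 24.7% of all tested genes, and no tested member had all DKO libraries below, against 19.6%. The median log2 fold change was 1.57 over the 8 tested members and 0.04 over all tested genes. Levels are given as CPM, the counts scaled to a common library size with TMM factors, which balance libraries that differ in makeup. All 8 would have passed the filter on low counts from the SKO libraries alone, so none was tested only because of high DKO counts. Among the genes that pass it on SKO alone, rises were more frequent at low SKO levels: 23.7% of 502 genes up to 1 CPM, 19.6% of 4294 at 1 to 10 CPM, 9.17% of 5562 at 10 to 100 CPM and 2.23% of 2373 above 100 CPM were called higher. Meioc, Syce1 and Tex12 lay at 1 to 10 CPM, Sycp1, Sycp2 and Sycp3 at 10 to 100 CPM, and Syce2 and Ythdc2 above.

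The libraries held 15521975 to 26652745 counts, and 3 counts, the most that a count of 0 allows, corresponded to 0.116 to 0.171 CPM. Rnf2 measured 56.3, 30.7 and 22.9 CPM in DKO replicates 1 to 3 and 180 to 203 CPM in SKO (edgeR log2 fold change -2.38, SE 0.30, adjusted p = 0.000349). These counts do not show which exons the remaining Rnf2 reads come from. Ring1 had 1 to 13 counts in each of the 6 libraries. Oocyte markers were abundant in both groups, at 10951 to 14311 CPM in sum over 10 genes in DKO and 18793 to 19750 CPM in SKO, led by Gdf9, Bmp15 and Nlrp5. Of these 10, 5 fell and the other 5 were not called. Granulosa and cumulus markers summed to 271 to 297 CPM in DKO and 113 to 141 CPM in SKO over 15 genes, of which 5 of 13 tested rose and 1 fell. The most abundant of them were Nr5a2, Ptgs2 and Cyp19a1, and none was at 0 in all libraries. Theca, stroma and endothelial markers summed to 148 to 162 and 128 to 172 CPM over 13 genes (6 of 9 tested higher, 1 lower), led by Pecam1, Tek and Cyp11a1. Some of these rises, such as Lum with 0 and Col1a1 with 5 SKO counts, were tested only because of their DKO counts. Blood and immune markers summed to 5.12 to 9.05 and 1.31 to 3.54 CPM over 9 genes, with Cd68 not called and the haemoglobin genes Hba-a1 and Hbb-bs at 0 throughout. Beside these marker counts, 17.3% of all tested genes were called higher and 7.41% lower. The part of the marker shifts in the changes of the meiotic genes was not tested. In pooled oocytes, fewer cells with a transcript and less transcript per cell cannot be told apart.

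**Figure D1:**
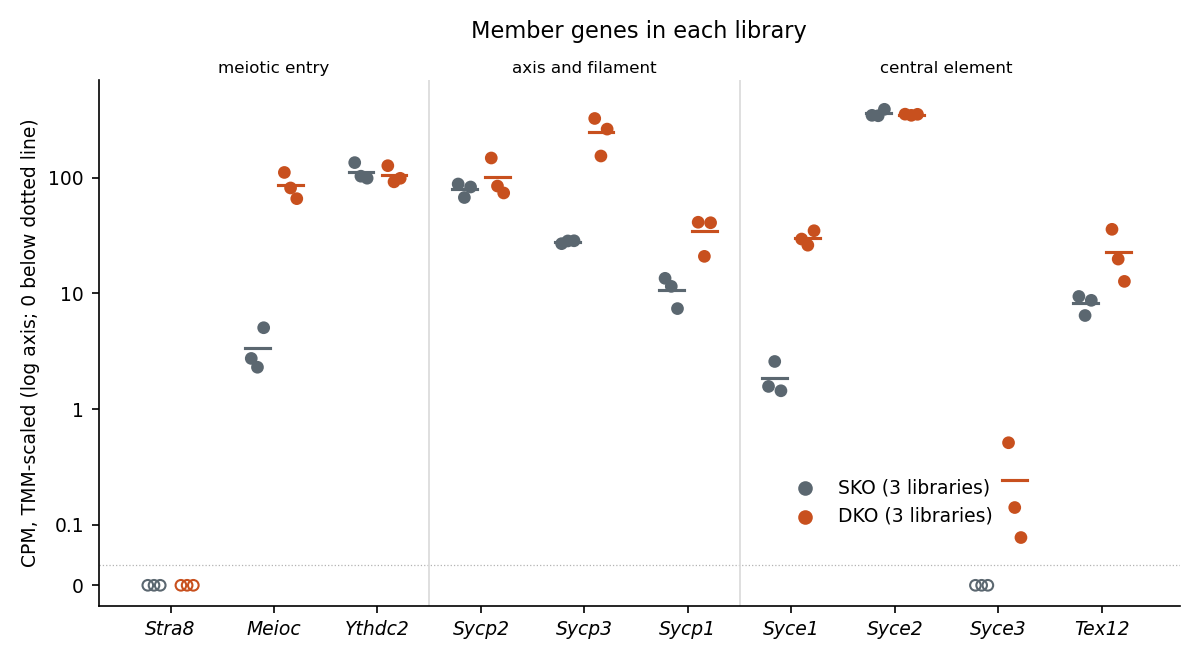
Expression of the 10 genes in each of the 6 libraries, as CPM on TMM-scaled library sizes (log axis, with values of 0 drawn as open points below the dotted line). Points are single libraries of 15 oocytes, bars are group means. Meioc, Syce1, Sycp3, Sycp1 and Tex12 lie higher in all 3 DKO libraries, Syce2, Sycp2 and Ythdc2 overlap between the genotypes, and Stra8 is at 0 throughout.

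The sequences upstream of 4 of the 5 risen genes are shown because they moved together and because factors of PRC1.6 are known to bind E-box and E2F motifs. They were read 5′ to 3′ from the RefSeq promoter table of GRCm38.p6, from 250 bases before the start site up to the start or, for Sycp3 and Tex12, to the first base that GENCODE M21 annotates as an exon. The window of Meioc lies mostly inside the span of the gene and is not printed. Capitals mark CACGTG (E-box), GGCGGGAA and TTTCCCGC (E2F), searched on both strands, so that the latter also appear as TTCCCGCC and GCGGGAAA. The pair of E2F strings can overlap each other. The windows were chr3:102936101-102936350 (minus strand) for Sycp1, chr10:88459337-88459568 (plus) for Sycp3, chr7:140787855-140788104 (minus) for Syce1 and chr9:50561326-50561518 (minus) for Tex12.
Sycp1: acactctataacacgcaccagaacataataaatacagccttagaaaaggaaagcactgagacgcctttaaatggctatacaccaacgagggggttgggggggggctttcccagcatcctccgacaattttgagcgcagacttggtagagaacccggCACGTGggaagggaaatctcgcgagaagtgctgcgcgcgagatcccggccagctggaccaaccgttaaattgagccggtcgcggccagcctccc
Sycp3: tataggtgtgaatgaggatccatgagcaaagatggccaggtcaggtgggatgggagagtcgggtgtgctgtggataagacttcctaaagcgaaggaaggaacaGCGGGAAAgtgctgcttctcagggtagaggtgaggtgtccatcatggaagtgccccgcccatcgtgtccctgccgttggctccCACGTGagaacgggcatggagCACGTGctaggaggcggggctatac
Syce1: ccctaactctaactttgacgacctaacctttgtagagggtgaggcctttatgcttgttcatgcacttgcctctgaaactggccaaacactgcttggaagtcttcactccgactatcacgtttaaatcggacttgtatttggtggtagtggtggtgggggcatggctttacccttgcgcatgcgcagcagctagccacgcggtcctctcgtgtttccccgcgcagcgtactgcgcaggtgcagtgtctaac
Tex12: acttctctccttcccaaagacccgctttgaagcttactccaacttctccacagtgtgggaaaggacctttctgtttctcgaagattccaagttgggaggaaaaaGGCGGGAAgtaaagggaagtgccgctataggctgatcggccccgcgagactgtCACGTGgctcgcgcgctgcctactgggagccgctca

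Promoter windows of 300 bases (250 before and 50 after each start) were held for 9 of the 10 genes, all but Ythdc2, and for 18281 genes of the count table. An E-box was found in 4 of the 9, against 9.17% of the 18281 genes. Sycp3 held a pair of E-boxes, 64 and 43 bases upstream of its start, Sycp1 held 1 at 94 bases and Tex12 held 1 at 93 bases. The fourth gene was Syce2, which held an E-box and overlapping copies of both E2F strings before its downstream start, and which was not called. GGCGGGAA was found in 2 of 9 (Tex12 and Syce2) and in 3.29% of genes, and TTTCCCGC in 3 of 9 (Sycp3, Meioc and Syce2) and in 1.61%. The copy of Meioc lay 228 bases upstream of the start site of its window, but inside the span of the gene. The extended E-box TCACGTGA, which contains CACGTG, was in 0 of 9 and in 1.46% of genes. Syce1, the gene with the next largest rise after Meioc, held none of these strings, nor did Sycp2, Syce3 or Stra8. The window of Stra8 lies wholly inside the span of that gene, so it does not cover the bases before the span. The risen genes had 14 to 28 CpG dinucleotides per window, against a median of 13 (quartiles 4 and 24) over all 22010 windows. Among the uncalled members, the windows of Syce2 had 19 and 33 and that of Sycp2 had 10. A match describes the letters of a window and not the binding of a factor.

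Among the entry genes, Meioc showed the largest change of the members and its partner Ythdc2 was not called. Meioc (chromosome 11, 102665351 to 102682240, GRCm38, RefSeq annotation) measured 111, 81.5 and 65.9 CPM in DKO replicates 1 to 3 and 2.74, 2.30 and 5.05 CPM in SKO replicates 1 to 3. The lowest DKO library exceeded the highest SKO library by a wide margin. The log2 fold change was 4.67 (SE 0.35, adjusted p = 1.33e-05, edgeR). Ythdc2 measured 127, 92.1 and 98.8 CPM in DKO and 135, 103 and 99.0 CPM in SKO, with overlapping groups. Its log2 fold change was -0.08 with a 95% interval of -0.52 to 0.35 (adjusted p = 0.789), and it was 0.08 when libraries were scaled by their totals alone. On a scale of counts per base, Meioc transcripts stood at 0.0278, 0.0308 and 0.0702 of those of Ythdc2 in the SKO libraries and at 1.21, 1.22 and 0.917 in the DKO libraries. A transcript that was a few percent of its partner in SKO was thus about level with it in DKO.

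Stra8 (chromosome 6, 34920163 to 34939344) had 0 counts in all 6 libraries. This allows at most 0.0464 CPM over the DKO group and 0.0423 CPM over the SKO group, where 3 counts over the group are the limit. Rec8 and Spo11, an early meiotic cohesin gene and the gene of the break-forming enzyme, which were picked out after their values were seen, had 0 and 0 counts in DKO and 1 and 0 in SKO.

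The lateral element genes differed from each other. Sycp3 (chromosome 10, 88459587 to 88473236) measured 325, 154 and 263 CPM in DKO and 26.9, 28.4 and 28.5 CPM in SKO. SKO libraries were nearly level, while DKO libraries spanned a wide range and all lay above them (log2 fold change 3.15, SE 0.26, adjusted p = 2.73e-05, edgeR). Sycp2 (chromosome 2, 178345295 to 178407776) measured 148, 84.7 and 73.8 CPM in DKO and 88.2, 67.4 and 83.1 CPM in SKO. Only DKO replicate 1 stood above the SKO range, and the log2 fold change of 0.36 (95% interval -0.21 to 0.93, adjusted p = 0.342) became -0.01 without that library. The ratio of Sycp3 to Sycp2 within each library, per base, went from 1.4, 1.94 and 1.57 in SKO to 10.1, 8.37 and 16.4 in DKO.

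Reads of Sycp3 are not fully separable from those of Chpt1, a phospholipid synthesis gene on the opposite strand. Of 1264 exon bases of Sycp3 in GENCODE M21, 660 also lie in exons of Chpt1, and the sources used here do not say whether reads were counted by strand. Chpt1 rose as well, from 2.88 ± 0.625 to 21.3 ± 12.4 CPM (SD, n = 3; log2 fold change 2.88, SE 0.44, adjusted p = 0.0011, edgeR). It gained 18.4 CPM while Sycp3 gained 219 CPM.

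Sycp1, the transverse filament gene (chromosome 3, 102818499 to 102936100), rose by less than Sycp3. It measured 41.2, 20.9 and 40.8 CPM in DKO and 13.5, 11.5 and 7.39 CPM in SKO, with no overlap between the groups (log2 fold change 1.67, SE 0.33, adjusted p = 0.00463, edgeR). The ratio of Sycp3 to Sycp1 within a library, per base, was 5.5, 6.84 and 10.6 in SKO and 21.7, 20.3 and 17.8 in DKO.

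In the central element, Syce1 and Tex12 rose while Syce2 was not called. Syce1 (chromosome 7, 140777229 to 140787854) measured 29.5, 26.1 and 34.8 CPM in DKO and 1.57, 2.58 and 1.44 CPM in SKO. Its DKO libraries were the tightest of the risen members relative to their mean (30.2 ± 4.36 CPM, SD, n = 3), and the log2 fold change was 4.02 (SE 0.32, adjusted p = 1.86e-05, edgeR). Syce2 (chromosome 8, 84872111 to 84887446) was the most abundant member in both genotypes, at 354, 346 and 353 CPM in DKO and 346, 343 and 390 CPM in SKO. Its log2 fold change was -0.04 with a 95% interval of -0.36 to 0.29 (adjusted p = 0.886), and it was 0.13 with library totals alone. The ratio of Syce1 to Syce2 per base was 0.00425, 0.00706 and 0.00346 in SKO and 0.0783, 0.0709 and 0.0927 in DKO, so Syce1 remained far below Syce2 in every library.

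Tex12 (chromosome 9, 50557148 to 50561268) showed the least secure of the 5 rises. It measured 35.8, 19.8 and 12.7 CPM in DKO and 9.41, 6.44 and 8.71 CPM in SKO, and the lowest DKO library lay close to the highest SKO library. The log2 fold change was 1.47 (SE 0.37, adjusted p = 0.0167, edgeR). The call was lost without DKO replicate 1 (0.98, adjusted p = 0.0567), without SKO replicate 2 (1.31, adjusted p = 0.0655) and without SKO replicate 3 (1.5, adjusted p = 0.0501). The ratio of Tex12 to Syce2 per base was 0.0592, 0.0410 and 0.0486 in SKO and 0.220, 0.124 and 0.0784 in DKO. Tex12 lies within the span of Il18, with which it shares 0 exon bases and which gained 0.466 CPM.

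Syce3 (chromosome 15, 89390174 to 89410503) had 9, 3 and 2 counts in the DKO libraries and 0 in each of the 3 SKO libraries, too few for a test. Pooled over the group, its observed DKO level stood 5.12-fold above 3 counts over the SKO group. This ratio takes the DKO counts as exact, so it is not a lower bound of the change. DKO replicate 1 held 9 of the 14 counts, and without it the ratio was 2.51-fold. The ratio was 3.33-fold without SKO replicate 1 and 3.36-fold without SKO replicate 3. These ratios were added after the data were seen. At 0.217 CPM over the DKO group Syce3 was still the lowest of the detected members.

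**Figure D2:**
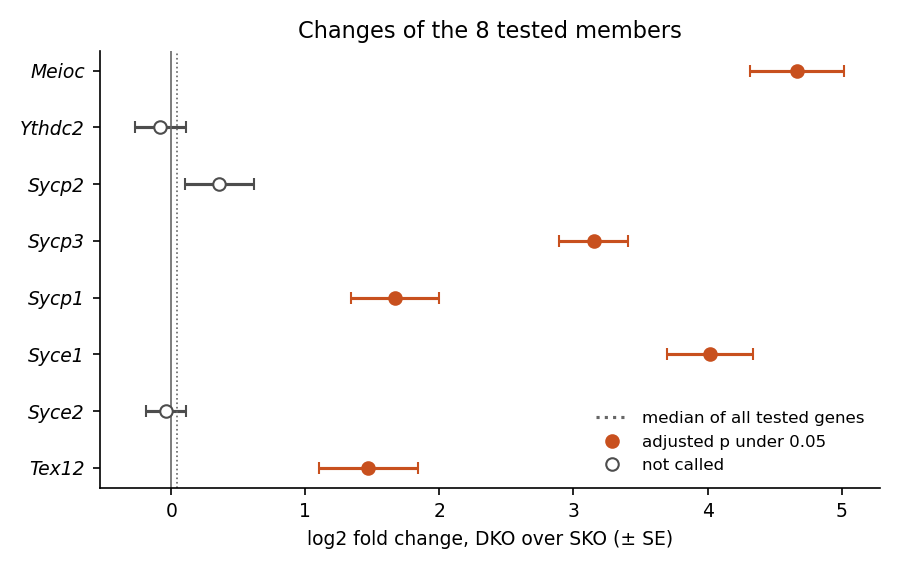
Log2 fold changes of DKO over SKO with their standard errors for the 8 tested members, from the fit over all genes (3 libraries per genotype). Filled points passed an adjusted p of 0.05, and the dotted line is the median of all tested genes at 0.04. Meioc at 4.67, Syce1 at 4.02 and Sycp3 at 3.15 lie farthest to the right, while Sycp2, Syce2 and Ythdc2 lie near 0.

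The partner ratios do not depend on how libraries are scaled to each other. All 5 pairs computed (Sycp3 to Sycp2, Sycp3 to Sycp1, Syce1 to Syce2, Tex12 to Syce2 and Meioc to Ythdc2) were higher in 3 of 3 DKO libraries than in any SKO library. The pairs were chosen with the values of their genes known. Each gave p = 0.1 in a two-sided exact permutation test, the smallest p that 3 against 3 libraries allow, and 0.1 after Benjamini-Hochberg adjustment over the 5 pairs. The mean log2 changes of the ratio were 4.82 for Meioc to Ythdc2, 4.09 for Syce1 to Syce2, 2.78 for Sycp3 to Sycp2, 1.43 for Sycp3 to Sycp1 and 1.40 for Tex12 to Syce2.

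**Figure D3:**
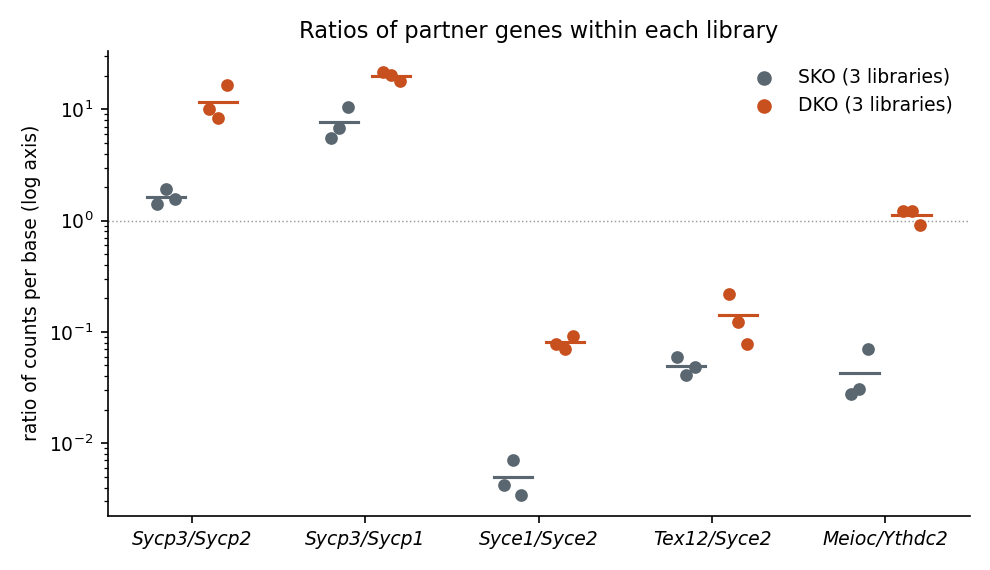
Ratios of the counts per base of partner genes within each library (log axis, points are libraries, bars are group means, the dotted line marks a ratio of 1). DKO libraries lie above SKO libraries in all 5 pairs, and Meioc reaches 0.917 to 1.22 of Ythdc2 in DKO.

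Scaled to gene length (RPKM, which is CPM divided by gene length in kilobases), the levels in SKO spread over a wide range. Syce2 led with 262 ± 19.2 RPKM, followed by Sycp3 at 22.4 ± 0.733, Ythdc2 at 17.8 ± 3.16, Sycp2 at 13.9 ± 1.9 and Tex12 at 13 ± 2.46 RPKM (SD, n = 3). Sycp1 at 3.14 ± 0.902, Syce1 at 1.27 ± 0.427 and Meioc at 0.735 ± 0.323 RPKM came last among the tested members. Sycp2 and Tex12, and Syce1 and Meioc, overlapped over the libraries, and the other neighbours in this order among the tested members did not. In DKO, Sycp3 reached 198 ± 69.3 RPKM and overlapped Syce2 at 256 ± 3.11 RPKM. Tex12 (36.1 ± 18.8), Syce1 (20.6 ± 2.98), Meioc (18.8 ± 5.04), Sycp2 (17.9 ± 7.02) and Ythdc2 (16.8 ± 2.94 RPKM) then followed, each overlapping the next. Sycp1 stood below them at 9.98 ± 3.37 RPKM.

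The DKO libraries did not rank alike for every member. DKO replicate 1, which kept the most Rnf2 at 56.3 CPM, was the highest for Sycp3, Sycp2, Tex12, Meioc and Ythdc2 and by a small margin for Sycp1. DKO replicate 3 was the highest for Syce1 and the lowest for Sycp2, Tex12 and Meioc, and DKO replicate 2 was the lowest for Sycp1, Sycp3, Syce1 and Ythdc2. Whether the remaining Rnf2 reads bear on these differences was not tested.

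Genes next to the risen members mostly had few reads. Ccdc43, 2444 bases from Meioc, went from 0.566 ± 0.253 to 2.04 ± 1.36 CPM (SD, n = 3) and was not called. Cyp2e1, 2239 bases from Syce1, had 10 counts in DKO and 0 in SKO, and Zfp941 on its other side had 0 and 10, both below the filter. Nr1h5, 3558 bases from Sycp1, had 4 counts in DKO and 0 in SKO, and Bco2, 1934 bases from Tex12, had 54 and 10. Tshb, the nearest gene on the other side of Sycp1, had 66 counts in DKO and 11 in SKO and was not tested. Apart from Chpt1, none of the genes that overlap a risen member or lie nearest to it was called, although 7 of them had too few counts for a test.

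Other genes of the complex and the chromosome axis split. Of 12 tested of 14 listed, 4 rose and 1 fell (33.3% and 8.33%, against 17.3% and 7.41% of all tested genes), with a median log2 fold change of 0.12. The largest rise was that of 4930447C04Rik, also called Six6os1, a further central element gene, from 0.270 ± 0.237 to 19.0 ± 8.1 CPM (SD, n = 3; log2 fold change 6.11, SE 0.71, adjusted p = 0.00022, edgeR). Its log2 fold change was 5.51 without SKO replicate 3. The axis gene Hormad1 went from 0.253 ± 0.0263 to 5.59 ± 1.86 CPM (4.43, SE 0.50), and the meiotic cohesin genes Smc1b and Rad21l rose by 1.48 and 1.26. With 19 and 18 counts over the SKO libraries, 4930447C04Rik and Hormad1 passed the filter on low counts only through their DKO counts. The share of rises in this list includes both. Hsf2bp, which helps load recombinases, fell by 0.69. The calls of Rad21l and Hsf2bp held in 7 and 8 of 14 alternative analyses. The list had 0 falls with library totals alone, without DKO replicate 1 and without any 1 SKO replicate. The abundant Smc3, Skp1 and Smc1a, which also act outside meiosis, had log2 fold changes of 0.20, -0.41 and -0.14 and were not called.

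Recombination and telomere attachment genes were called in shares near those of all tested genes. These shares are not compared with those of the axis list. Both lists include rises that passed the filter on low counts only through DKO counts. Of 27 tested of 30 found, 6 rose and 2 fell (22.2% and 7.41%, against 17.3% and 7.41% of all tested genes). Their median log2 fold change was 0.45, against 0.12 in the axis list and 0.04 over all tested genes. Spata22, a partner of MEIOB on single-stranded DNA, had 3 SKO counts and 363 DKO counts, a ratio of 133 (95% counting interval 45.1 to 647). This gene passed the filter on low counts only through its DKO counts. Iho1, which acts in break formation, and Ccnb1ip1, a crossover factor, rose by 2.34 (SE 0.43, adjusted p = 0.00301) and 2.09 (SE 0.38, adjusted p = 0.00305, edgeR). Tex11 rose by 1.19 and the nuclear envelope gene Sun1 fell by 0.70, with adjusted p-values up to 0.098 and 0.0764 over the alternatives. The other fall, named after its value was seen, was that of Psmc3ip by 0.69. Of 1818 exon bases of Psmc3ip, 385 also lie in exons of Mlx on the opposite strand. The change in CPM was -7.05 for Mlx and -13 for Psmc3ip, so their reads are not fully separable. Brca2 and Tex15, abundant genes that were not called, had log2 fold changes of 0.02 and 0.28. The count of rises in this list was 3 without DKO replicate 1 and also 3 without each of SKO replicates 1, 2 and 3, and falls ranged from 0 to 3. Without SKO replicate 3, Iho1 rose by 3.04.

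Among regulators of meiotic entry and the retinoic acid pathway, 7 of 21 tested rose and 1 fell (33.3% and 4.76%), with a median of 0.41. Over all tested genes the shares were 17.3% and 7.41%. Rbm46, whose RNA-binding product works in a complex with MEIOC and YTHDC2, went from 0.329 ± 0.205 to 54.9 ± 11.7 CPM (SD, n = 3; log2 fold change 7.33, SE 0.43, adjusted p = 3.42e-06, edgeR). It measured 45.6 to 68.1 CPM over the DKO libraries and 0.0921 to 0.452 CPM over the SKO libraries. The retinaldehyde dehydrogenase genes Aldh1a2 and Aldh1a3, which make retinoic acid, rose from 99.9 ± 27.3 to 243 ± 12.1 CPM and from 0.317 ± 0.332 to 6.40 ± 1.83 CPM, by 1.28 and 4.30 on the log2 scale. The receptor gene Rxra rose by 0.94 (SE 0.18, adjusted p = 0.00418). Crabp1, a retinoic acid binding protein gene, had 3 SKO counts and 607 DKO counts, a ratio of 222 (75.6 to 1080), and all 3 SKO counts lay in replicate 3. Rbm46 and Aldh1a3 had 24 and 23 SKO counts. Like Crabp1, they passed the filter on low counts only through their DKO counts. So did Dmrt1, also called higher, with 9 SKO counts and 60 DKO counts. The share of rises includes all of these genes. Dazl, Rdh10 and Smad4 were the most abundant genes not called, at 0.14, 0.20 and -0.10. The log2 fold change of Aldh1a3 was 5.57 without SKO replicate 3. The fall was that of Zglp1, named after its value was seen (log2 fold change -0.60, adjusted p = 0.0444, edgeR). The list had 0 falls with library totals alone and without DKO replicate 1, DKO replicate 2 or any 1 SKO replicate.

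None of the 9 genes for YTH domain readers and m6A enzymes was called in either direction (edgeR), with 1 higher and 0 lower at an unadjusted p under 0.05 and 0 called by DESeq2 and limma-voom. There was 1 call higher with library totals alone and with the replicate block, and 1 lower without DKO replicate 3. The most abundant, Alkbh5, Ythdf3 and Ythdc1, had log2 fold changes of -0.24, -0.08 and 0.57. Of 20 genes of PRC1.6 and other repressors of germline genes, 3 fell and 0 rose (15% and 0%), with 2 higher at an unadjusted p under 0.05. Over all tested genes 7.41% fell and 17.3% rose. Among genes above 100 CPM in SKO that pass the filter on SKO alone, 18.8% fell and 2.23% rose. Some of these repressor genes lie at such levels, among them Dnmt3a and Setdb1. Dnmt3l, the other gene that fell, lay at 71.7 CPM in SKO, and at 10 to 100 CPM 9.65% of genes fell. The counts of calls are not read as particular to the repressor genes. DESeq2 called 1 higher and limma-voom 0, and with library totals alone 2 were called higher and 1 lower. No fall was called without SKO replicate 1, 2 or 3. The falls were Dnmt3a, Dnmt3l and Setdb1, by 0.63, 0.77 and 0.52, and these calls held in 11, 10 and 9 of 14 alternatives. Dnmt3a, Dnmt3l and Setdb1 each share exon bases with a gene on the other strand. Dnmt1, Max and Uhrf1 were not called, at -0.66, 0.12 and -0.32. The PRC1.6 genes Pcgf6, Mga and E2f6, named here because of the motifs above, measured 344 ± 11.7, 323 ± 94 and 5.25 ± 2.71 CPM in DKO and 351 ± 36.1, 225 ± 29 and 4.97 ± 0.544 CPM in SKO (SD, n = 3) and were not called.

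**Figure D4:**
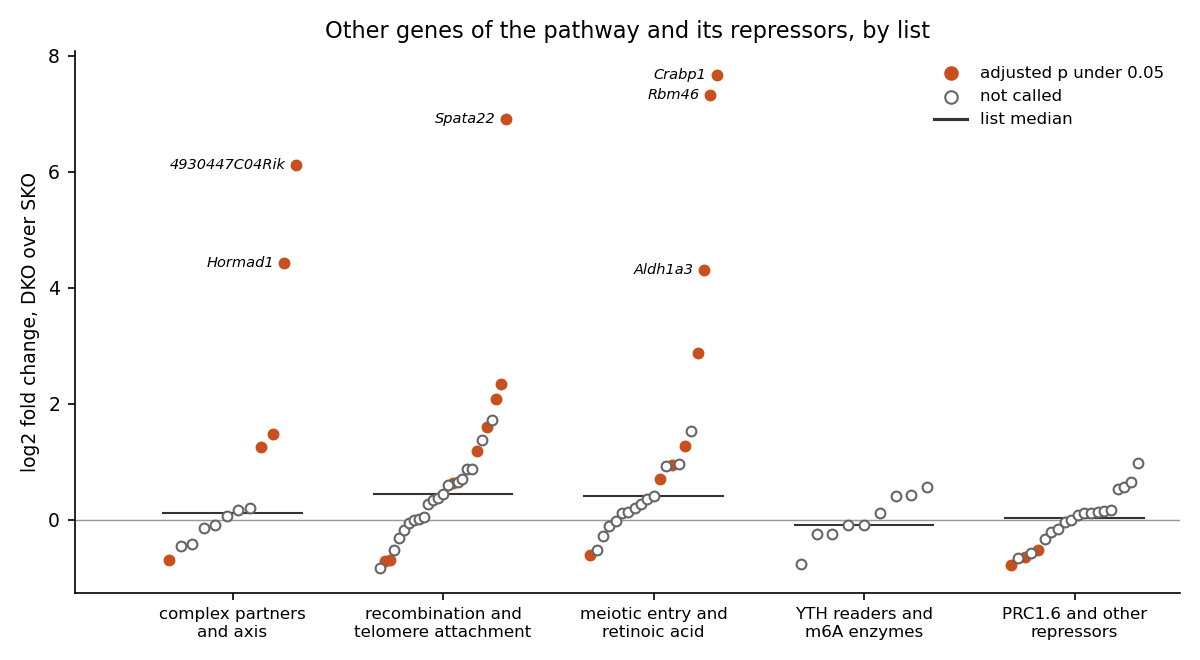
Log2 fold changes of DKO over SKO for the tested genes of 5 lists, ordered by value within each list (filled points passed an adjusted p of 0.05, lines are list medians). The labelled points have the largest values, among them 4930447C04Rik at 6.11 and Rbm46 at 7.33. In the YTH and PRC1.6 lists the medians lie at -0.08 and 0.04, and 3 genes of the PRC1.6 list passed the test, all lower.

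Genes whose log2 CPM followed a member most closely over the 6 libraries were sought among 10095 genes with a mean of at least 2 log2 CPM. Close to Meioc was Dmrt2 (Pearson r 0.9967, n = 6 libraries). The closest were, for Sycp3, Cdh9 and Memo1 (0.9991 and 0.9982), and for Syce1 Vldlr and Lonrf3 (0.9993 and 0.9984). For Sycp1 they were Pgap1 and Pip4k2a (0.9974 and 0.9970) and for Tex12 Ugt8a and Bard1 (0.9937 and 0.9925). Values this high were common, since the 6 points share a split into genotypes: 460 genes exceeded 0.95 with Meioc, 459 with Sycp3 and 452 with Syce1. For the members that were not called, the closest were Rab39b and Eny2 for Sycp2 (0.9950 and 0.9928), Nmu and Rsbn1 for Syce2 (0.9693 and 0.9619), and Relch and Bnip3l for Ythdc2 (0.9802 and 0.9709).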

How the data were processed

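RNA-seq covered 3 DKO and 3 SKO libraries. The authors deposited raw read counts per Entrez gene, with a gene length that served for RPKM. The submitters' processing notes list STAR 2.5.0a, GRCm38 and mm10. The counter, the annotation and the handling of strand were not given in the sources used here. RNA was amplified, per the labels' protocols, so counting intervals and floors cover counting error only. Of 24421 identifiers, 24387 matched RefSeq genes of GRCm38.p6. Of 152 list entries, 147 were found.

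Tests used R 4.3.3 and edgeR 4.0.16 on the deposited counts: filterByExpr (minimum count 10, minimum total 15), TMM scaling and the quasi-likelihood test (two-sided). P-values of the 14845 genes tested were adjusted together by the Benjamini-Hochberg method. Standard errors and 95% intervals come from the F statistic. Genes called have an adjusted p under 0.05. The code was tested on simulated data. Alternatives used DESeq2 1.42.0, limma 3.58.1 (voom), other scalings and filters, thinned counts, a replicate block and leaving out each library. Members, lists and the ratio pairs were chosen with earlier results of these data known. From each list, up to 5 called genes with the smallest adjusted p and the 3 most abundant uncalled genes are named, with the 3 most abundant genes of each marker list, genes overlapping or nearest to a member, and the 2 genes most correlated with each. A few genes that this rule names are not reported here.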

Additional observations from a re-analysis of the deposited data

How the results depend on the processing

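Under each of 14 alternatives 4 or 5 members were called higher and 0 lower. The count was 4 without DKO replicate 1, SKO replicate 2 or SKO replicate 3, where Tex12 was lost. Meioc, Syce1, Sycp3 and Sycp1 kept their calls in all 14, with ranges of 4.45 to 5.08, 3.85 to 4.31, 2.90 to 3.39 and 1.45 to 1.92 on the log2 scale. The uncalled members changed sign: Syce2 (0.13) and Ythdc2 (0.08) with library totals alone, and within the ranges of -0.01 to 0.54 for Sycp2, -0.08 to 0.02 for Syce2 and -0.24 to 0.05 for Ythdc2 when 1 library was left out. Over all genes, rises were 2567 (1952 to 2704 with 1 library left out) and falls 1100 (434 to 1501, and 596 with library totals alone). With library totals the median over all genes was 0.20 instead of 0.04, and the share of rises among calls 82.9% instead of 70%.

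With the replicate number as a block, 5 members were called higher and 0 lower, and 2651 and 1364 of all genes. Deviations of same-numbered libraries from their group means correlated at 0.12, 0.07 and 0.05, and those of differently numbered libraries at -0.07 to 0.01. Each library thus correlated best with its own number, at low values. Whether same-numbered libraries were paired was not tested. In the 100 bases before the start, the E-box stayed in 4 of 9 members (4.24% of genes), while GGCGGGAA and TTTCCCGC were each in 1. At these depths Stra8 and Syce3 cannot be compared between genotypes beyond the floors given. DKO libraries correlated with each other at 0.936 to 0.959 and SKO libraries at 0.962 to 0.967 (Pearson r over genes, which are no replicates).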
